A study of Homo sapiens with 6 samples.

Results

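Galectins are lectins that bind β-galactoside sugars on glycoproteins and glycolipids, and they act both outside the cell, where they crosslink surface receptors, and inside it, where they recognise damaged endosomes and lysosomes. They fall into prototype forms with a single carbohydrate-recognition domain, such as galectin-1, the chimera form galectin-3, which joins such a domain to a collagen-like tail, and tandem-repeat forms with a pair of domains, such as galectin-8 and galectin-9. In squamous carcinomas galectin-1 and galectin-3 are known for their part in adhesion, migration and the dampening of T cell responses. LGALS3BP encodes a secreted glycoprotein that is a ligand of galectin-3 and carries no galectin domain.

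To describe these genes after silencing of interleukin-1β (IL-1β), all probe sets were taken whose platform annotation lists exactly 1 symbol among LGALS1, LGALS3, LGALS3BP, LGALS8 and LGALS9. This gave 11 probe sets for 5 genes, of 41097 probe sets and 19775 genes with a single symbol. The genes were chosen on this comparison, with the expression values of the same arrays already known, so their differences are given as a description. Calls of the whole-array fit are counted for them once, beside the share over all probe sets, and support nothing. Cal27 is a human cell line from a squamous carcinoma of the tongue. Its cells carried a lentiviral hairpin against IL-1β (LV-shIL-1β, 3 arrays) or a scrambled hairpin (LV-shNC, 3 arrays), 1 hairpin sequence in each group. Both groups were kept in medium with serum and infected with polybrene. Both had passed 2 weeks of selection in 2 µg/mL puromycin. Cells without virus were not analysed here, so what the virus, the polybrene and the selection share between the groups is not seen. Whether the 3 arrays stand for separate cultures is not stated in the sources used here, so the p-values weigh differences against array-to-array spread that could be technical alone. In such bulk RNA, fewer cells of a type and less RNA per cell cannot be told apart.

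The silenced gene itself was lower on both of its probe sets, with a log2 difference of -0.72 ± 0.04 on the brighter one and -0.74 ± 0.04 on the other (SE). Of the squamous epithelial markers, all 5 that could be read were above the filter. Their summed signal lay between 17380 and 17540 in LV-shIL-1β and between 19470 and 19920 in LV-shNC. KRT5 (-0.32 ± 0.04, limma adjusted p = 0.00152) and KRT14 (-0.35 ± 0.03, adjusted p = 0.000261) were lower. In CDH1 (0.04 ± 0.04), DSG3 (-0.10 ± 0.09) and SFN (0.01 ± 0.03) the groups overlapped. The 4 leukocyte markers together summed to 98.6 to 100.4 in LV-shIL-1β and 76.9 to 82.9 in LV-shNC. Only CD14 among them was above the filter, and it was higher (0.51 ± 0.08, adjusted p = 0.00453). The common leukocyte antigen PTPRC was below it on every array. The 6 fibroblast markers summed to between 118 and 132.3 in LV-shIL-1β and between 150.5 and 173 in LV-shNC. Of these, 4 passed the filter, COL1A2 and LUM through the LV-shNC arrays alone, while COL3A1 and DCN were below it. In COL1A1 (-0.16 ± 0.11), PDGFRB (-0.18 ± 0.10), COL3A1 (-0.11 ± 0.15) and DCN (-0.16 ± 0.11) the groups overlapped. COL1A2 and LUM stood at -0.53 and -1.14 on the log2 scale and at -0.29 and -0.61 with a pseudocount of 16, so the sizes depend on values near background. The 3 endothelial markers, 1 above the filter, summed to 57.6 to 58.9 in LV-shIL-1β and 58.4 to 62.2 in LV-shNC. For RNA integrity, the 3′ probe set of GAPDH was set against its 5′ probe set, and their log2 ratio was 0.04 ± 0.01 in LV-shIL-1β and -0.02 ± 0.03 in LV-shNC (SD, n = 3), and that of ACTB was 0.39 ± 0.05 in LV-shIL-1β and 0.41 ± 0.13 in LV-shNC. Galectin-1 is also made by fibroblasts, and galectin-1, galectin-3 and galectin-9 by leukocytes. The part of these shifts in the galectin values was not tested.

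To show the DNA upstream of genes with lower and with similar signals, promoter windows were read from RefSeq (build GRCh38.p14), each with 250 bases before and 50 after an annotated start. LGALS3, LGALS3BP, LGALS8 and LGALS9 matched by symbol, LGALS8 with 3 windows and the others with 1 each, and LGALS1 did not match. The stretches printed run 5′ to 3′ up to the start, on the strand of the gene. Capitals mark matches to the core of the interferon-stimulated response element (GAAA, a gap of any 2 bases, GAAA) or to the NF-kB consensus, on either strand. LGALS3 is shown because its signal was lower, and LGALS3BP and LGALS9 because both hold the interferon core. The LGALS3 stretch is chr14:55129062-55129251 on the plus strand, that of LGALS3BP chr17:78979924-78980043 on the minus strand and that of LGALS9 chr17:27631068-27631188 on the plus strand, which ends on the first transcribed base.
LGALS3: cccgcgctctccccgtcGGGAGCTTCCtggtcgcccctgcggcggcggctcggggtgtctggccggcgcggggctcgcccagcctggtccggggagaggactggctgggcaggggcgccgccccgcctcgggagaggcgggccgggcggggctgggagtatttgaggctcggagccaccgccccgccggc
LGALS3BP: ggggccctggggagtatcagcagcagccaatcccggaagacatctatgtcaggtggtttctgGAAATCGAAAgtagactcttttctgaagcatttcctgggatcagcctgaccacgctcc
LGALS9: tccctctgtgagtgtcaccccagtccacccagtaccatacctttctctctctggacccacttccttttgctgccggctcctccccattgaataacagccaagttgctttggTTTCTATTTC

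In LGALS3BP the interferon core lay from base -58 to -49 relative to the start, and in LGALS9 it lay on the opposite strand from base -9 to the first transcribed base. This core was present in 3.57% of all 35116 windows of the same length. The NF-kB match of LGALS3 lay from base -173 to -164, and 1 of the 3 LGALS8 windows held a match from base -121 to -112, against 11.3% of all windows. GC boxes (GGGCGG, either strand, 45% of windows) were found 3 times in the LGALS3 window, once in 1 LGALS8 window and in neither LGALS3BP nor LGALS9. The AP-1 site TGAGTCA (4.95% of windows) and the interferon-gamma activated site TTCNNNGAA (7.66%) were searched on both strands as well, and no window of these 4 genes held them. These are letter matches in a short window and say nothing of binding.

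The prototype galectin LGALS1 and the chimera galectin LGALS3 were both lower with LV-shIL-1β. LGALS1, which encodes galectin-1, had signals of 963, 972 and 995 on the LV-shIL-1β arrays and of 1556, 1461 and 1500 on the LV-shNC arrays. Every LV-shIL-1β array lay below every LV-shNC array, and the gap between the groups was wider than the range within either. The mean signal was 976.7 ± 16.5 in LV-shIL-1β and 1506 ± 48 in LV-shNC (SD, n = 3), a log2 difference of -0.62 ± 0.04 (SE), and leaving out any 1 array gave values between -0.65 and -0.60. LGALS1 had 1 probe set, so no second measure of it was at hand.

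LGALS3, the gene of galectin-3, had signals of 1076, 1082 and 1094 on the LV-shIL-1β arrays and of 1288, 1356 and 1349 on the LV-shNC arrays for the brighter of its 2 probe sets. The groups did not overlap here either, and the LV-shIL-1β arrays lay close together. The mean was 1084 ± 9.35 in LV-shIL-1β and 1331 ± 37.5 in LV-shNC (SD, n = 3), a log2 difference of -0.30 ± 0.04 (SE), with values between -0.32 and -0.28 when single arrays were left out. The second LGALS3 probe set, whose name ending in _a_at marks alternative transcripts of 1 gene, had signals of 10.8, 10.99 and 11.7 in LV-shIL-1β and of 9.20, 11.5 and 12.5 in LV-shNC. All of these lie below 18.6, the median of all values used as a filter, and the groups overlapped.

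LGALS3BP, the secreted ligand of galectin-3, did not follow it. Its signals were 1085, 1089 and 1134 in LV-shIL-1β and 1113, 1075 and 950.9 in LV-shNC. The groups overlapped, with the lowest value on LV-shNC array 3. The mean was 1102 ± 27.4 in LV-shIL-1β and 1046 ± 84.9 in LV-shNC (SD, n = 3), a log2 difference of 0.08 ± 0.06 (SE). Without LV-shNC array 3 the difference was 0.01.

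**Figure D1:**
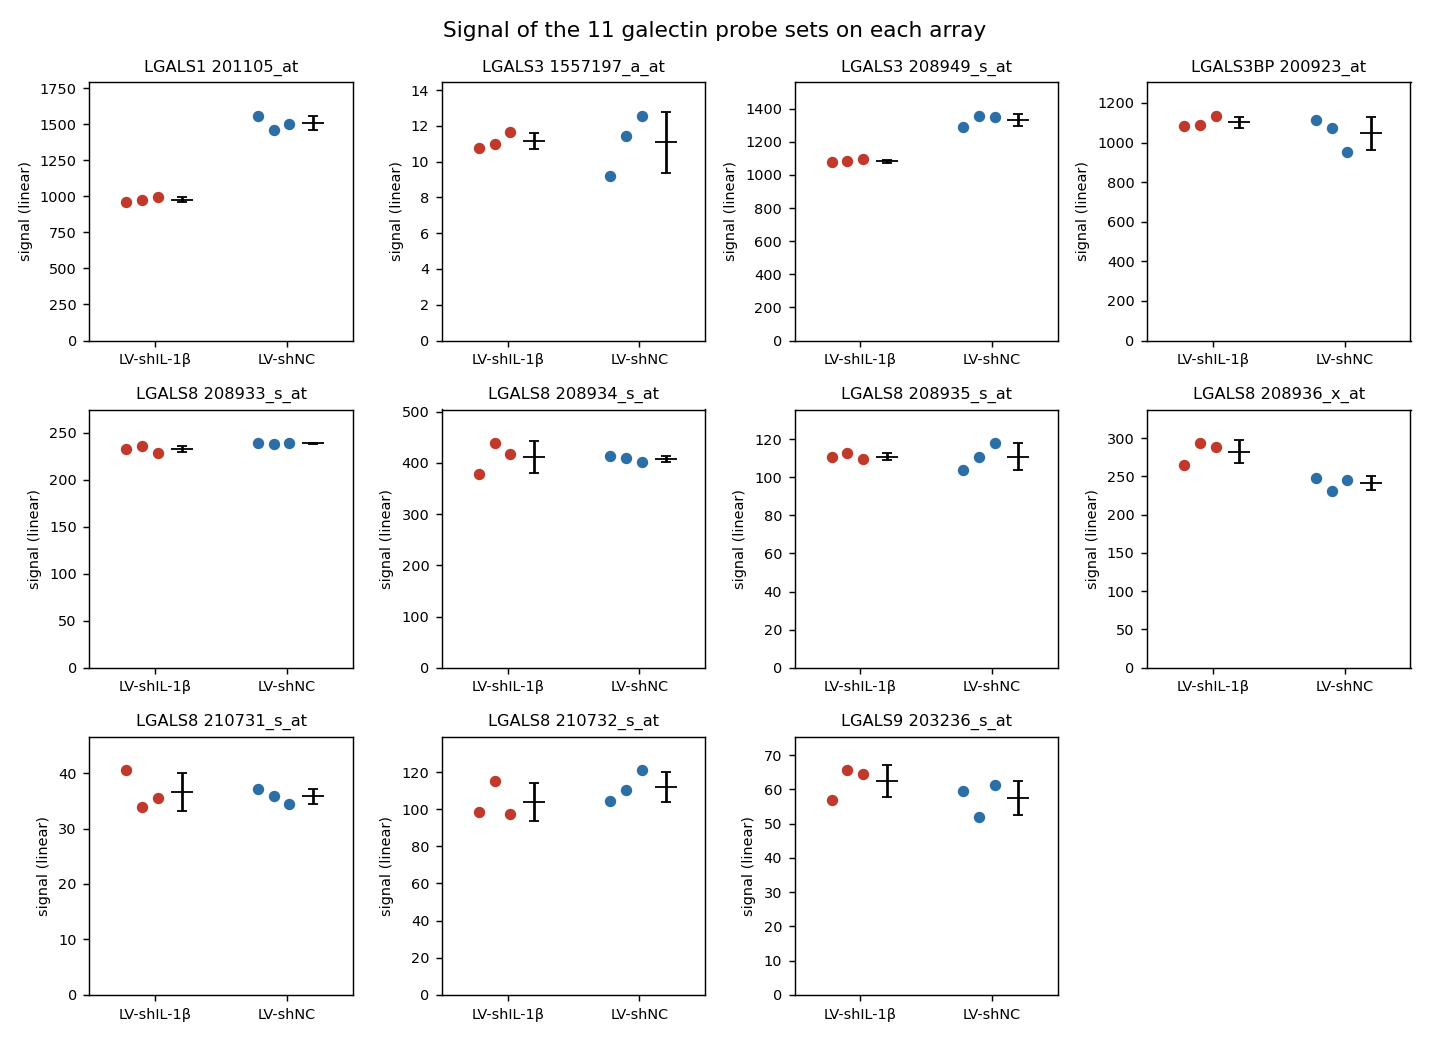
Signal (vertical axes, linear intensity from 0) of the 11 probe sets of LGALS1, LGALS3, LGALS3BP, LGALS8 and LGALS9 on each array, with LV-shIL-1β in red on the left and LV-shNC in blue on the right of each panel. Points are single arrays, black marks show group means with SD (n = 3), and the LV-shIL-1β arrays of LGALS1 (963 to 995) and of the brighter LGALS3 probe set (1076 to 1094) lie below all LV-shNC arrays.

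The tandem-repeat galectins showed little difference on most probe sets. LGALS8, whose product detects sugars exposed on damaged vesicles and recruits the autophagy receptor CALCOCO2, was read by 6 probe sets, all above the filter. The brightest of them had signals of 377.7, 438.6 and 418.1 in LV-shIL-1β and of 413.8, 408.7 and 402.4 in LV-shNC, with overlapping groups and a log2 difference of 0.01 ± 0.06 (SE). The LV-shIL-1β arrays spread more widely on it than the LV-shNC arrays, with an SD of 30.9 against 5.71.

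A single LGALS8 probe set, 208936_x_at, stood higher, with signals of 265.1, 293.4 and 287.8 in LV-shIL-1β and of 248.1, 230.4 and 245.6 in LV-shNC. The groups did not overlap, and the log2 difference was 0.22 ± 0.06 (SE). The ending _x_at marks probe sets in which some probes also match other sequences. Another, 208933_s_at, had signals of 233, 235.5 and 228.8 in LV-shIL-1β and of 238.9, 238.5 and 238.9 in LV-shNC. Here the groups did not overlap in the opposite direction, at a log2 difference of -0.04 ± 0.05.

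The other 3 LGALS8 probe sets overlapped between the groups, with log2 differences of 0.00 ± 0.07 (208935_s_at), 0.03 ± 0.09 (210731_s_at) and -0.11 ± 0.09 (210732_s_at). Across the 6 probe sets of this 1 gene the differences thus ran between -0.11 and 0.22, and the signs were mixed. LGALS8-AS1, a noncoding RNA antisense to LGALS8, had signals of 36.2, 41.8 and 38.6 in LV-shIL-1β and of 40.8, 37.6 and 39.1 in LV-shNC (-0.01 ± 0.08).

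LGALS9, which encodes galectin-9, a ligand of the T cell surface protein HAVCR2 (TIM-3), had signals of 57.0, 65.6 and 64.6 in LV-shIL-1β and of 59.5, 52.0 and 61.3 in LV-shNC. The groups overlapped, with LV-shIL-1β array 1 inside the LV-shNC range. The log2 difference was 0.12 ± 0.09 (SE), and leaving out single arrays gave values between 0.04 and 0.18.

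**Figure D2:**
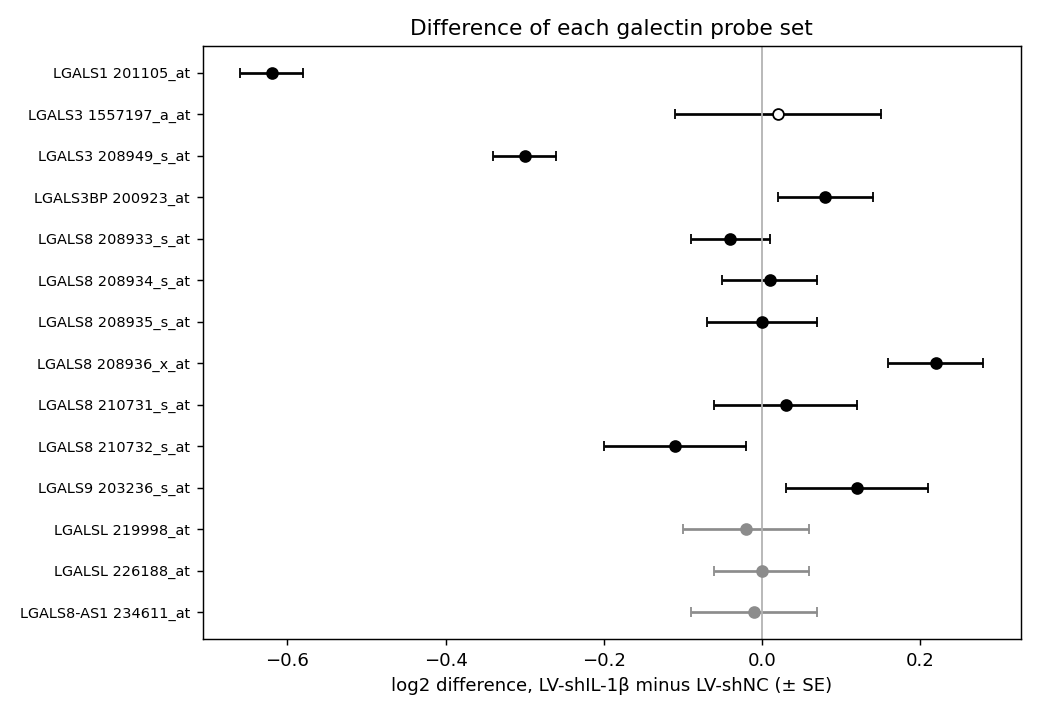
Log2 difference, LV-shIL-1β minus LV-shNC (horizontal axis, bars are the SE), of each of the 11 galectin probe sets (black, open where below the filter) and of the kept probe sets of LGALSL and LGALS8-AS1 (grey). LGALS1 (-0.62) and the brighter LGALS3 probe set (-0.30) lie left of zero, 1 LGALS8 probe set lies at 0.22, and the others lie between -0.11 and 0.12.

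A probe set was kept for the fit across the whole array when at least 3 arrays lay above 18.6, and 10 of the 11 galectin probe sets were kept. The 2 that passed the adjusted threshold in limma were those of LGALS1 and LGALS3, both lower, which is 2 of 10 beside 3.37% of all 27546 kept probe sets called lower. None of the 10 passed upward, beside 3.68% called higher (7.06% in either direction). At an unadjusted limma p under 0.05 the counts were 1 higher and 2 lower of the 10. Beside them, 13% of all genes were higher and 12% lower, each gene by its brightest kept probe set. At the adjusted threshold the methods' t-test also called 2, beside 267 of all 27546 kept probe sets. The 1 higher at the unadjusted p is the LGALS8 probe set 208936_x_at. It passed the adjusted threshold after median centring, with array weights and without LV-shIL-1β array 1. The groups did not overlap for 4 of the 10, beside 27.9% of all kept probe sets. Since the genes were chosen on this comparison, nothing is read from these counts.

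Other members of the family were dim in these cells. LGALSL, a galectin-related gene, was the one other family gene with kept probe sets, with signals of 267.1, 297.4 and 286 in LV-shIL-1β and of 276.4, 277 and 295.9 in LV-shNC on the brighter one. The groups overlapped, and the difference was 0.00 ± 0.06 (SE). LGALS2, LGALS4, LGALS12, LGALS13, LGALS14 and CLC lay below 18.6 on all 6 arrays, with the highest value of any of them at 15.8. LGALS4, a galectin of the gut lining, had signals of 8.01, 7.23 and 8.14 in LV-shIL-1β and of 8.83, 10.5 and 9.79 in LV-shNC, without overlap but at a level where signal and background are hard to separate. No value is given for galectin-7, a galectin of stratified epithelia, because its probe set lists more than 1 symbol.

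To see what the galectin values had in common with their surroundings, the 10 nearest measured genes on each side were taken by gene order in RefSeq, a step added after the values were seen. The median log2 difference of the 20 neighbours was 0.01 for LGALS1 on chromosome 22 and 0.01 for LGALS3 on chromosome 14. Of all genes, 8.53% passed in either direction when each stands by its brightest kept probe set. Of the neighbours of LGALS1, 0 passed downward and 1 upward in limma, and their values lay between -0.25 and 0.41. Of those of LGALS3, 2 passed downward and 1 upward. For LGALS3BP, LGALS8 and LGALS9 the medians were 0.04, -0.01 and -0.07. Of these neighbours, 1 passed downward and 2 upward beside LGALS3BP, 2 downward and 3 upward beside LGALS8, and 1 in each direction beside LGALS9, where 14 of the 20 were below zero. For both LGALS1 and LGALS3, 9 of the 20 neighbours had a difference below zero.

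The genes with profiles most like each galectin were sought by the root mean square distance of log2 values over the 6 arrays, each profile centred on its LV-shNC mean. Nearest to LGALS1 were CBR1, a carbonyl reductase, at a distance of 0.023, LOXL4, a lysyl oxidase (0.031), and BACE2, an aspartic protease (0.033). CBR1 had signals of 364, 355.2 and 361 in LV-shIL-1β and of 582.4, 540.3 and 543.2 in LV-shNC, a log2 difference of -0.62 ± 0.05 (SE). As in LGALS1, array 1 was the highest and array 2 the lowest of LV-shNC. Nearest to LGALS3 were ATRN (0.020), SUMO3 (0.020) and TMEM52 (0.021, with LV-shIL-1β signals under the filter), and CBR1, BACE2 and SUMO3 lie on chromosome 21, away from the galectins. For LGALS3BP (MAST2, CDC40 and EWSR1, at 0.016 to 0.024), LGALS8 (ZYX, UTP3 and TUBB4B, at 0.009 to 0.014) and LGALS9 (HYI, USP13 and RDH13, at 0.016 to 0.020), the nearest genes differed little between the groups, so the likeness there is mostly in the spread between arrays. With 6 arrays in 2 groups, many genes can lie this close.

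To place the galectins beside what they bind, 24 glycoproteins and receptors known as galectin ligands were examined, of which 19 had a kept probe set. In limma 2 rose and 3 fell (26.3% called, beside 8.53% of all 12313 genes), and the median log2 difference was -0.06 (0.00 over all genes). This list and those of glycan enzymes and lysosome damage genes below were chosen with earlier results of these data known. Nothing is therefore read from their shares. The methods' t-test called 0 of the 19 genes. Counted over probe sets rather than genes, it called 267 of all 27546 kept. PDPN, podoplanin, a mucin-type glycoprotein of invading squamous carcinoma cells that galectin-8 binds, had signals of 70.7, 76.3 and 78.9 in LV-shIL-1β and of 135, 127.3 and 109.9 in LV-shNC. No array of the groups overlapped, and PDPN fell by 0.72 ± 0.09 on the log2 scale (SE, limma, Benjamini-Hochberg adjusted p = 0.00171). Its other 2 kept probe sets gave -0.73 ± 0.06 and -0.71 ± 0.08, so all 3 moved alike.

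Other ligands moved less or in the opposite direction. The integrin chain ITGA3, a partner of galectin-3 on epithelial cells, fell to 178.1 ± 3.25 in LV-shIL-1β, against 228.2 ± 8.53 in LV-shNC (SD, n = 3, log2 difference -0.36 ± 0.06, limma adjusted p = 0.00527). The transmembrane mucin MUC1 averaged 186.4 ± 3.29 in LV-shIL-1β and 226.8 ± 14.6 in LV-shNC (-0.28 ± 0.06, limma adjusted p = 0.0262), but failed the threshold when LV-shIL-1β array 2 or 3 or LV-shNC array 2 or 3 was left out (adjusted p up to 0.0913). Of its other 2 kept probe sets, which did not pass, 1 stood at -0.25 ± 0.10. The other passed the filter through LV-shNC alone, and stood at -0.33 ± 0.10, or -0.18 with a pseudocount of 16.

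CEACAM6, an adhesion glycoprotein of the carcinoembryonic antigen family, rose, with signals of 110.4, 118.2 and 126.7 in LV-shIL-1β and of 76.4, 81.1 and 76.2 in LV-shNC (log2 difference 0.60 ± 0.07, SE, limma adjusted p = 0.00158). Its second kept probe set overlapped between the groups (0.34 ± 0.11, adjusted p = 0.11). TFRC, the transferrin receptor, rose to 3468 ± 246 in LV-shIL-1β, against 2687 ± 76.5 in LV-shNC (SD, n = 3, 0.37 ± 0.05, adjusted p = 0.00298). Of its other 3 kept probe sets, 237215_s_at also passed (0.36 ± 0.07, adjusted p = 0.0209) and 2 did not (0.23 ± 0.06 and -0.05 ± 0.08).

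With TFRC, the ligands of brightest signal were LAMP1 and ALCAM, and neither passed. LAMP1, a heavily glycosylated lysosomal membrane protein that galectin-3 binds, differed by -0.06 ± 0.04 on its brightest probe set (limma adjusted p = 0.437), and ALCAM, an adhesion molecule bound by galectin-8, by -0.09 ± 0.03 (adjusted p = 0.136). HAVCR2 stood at 0.10 ± 0.11. The leukocyte receptors PTPRC, LAG3 and CD7 and the mucins MUC4 and MUC16 were below the filter. MUC16 had signals averaging 13.2 ± 2.32 in LV-shIL-1β and 18.7 ± 1.08 in LV-shNC (SD, n = 3) and was not tested.

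**Figure D3:**
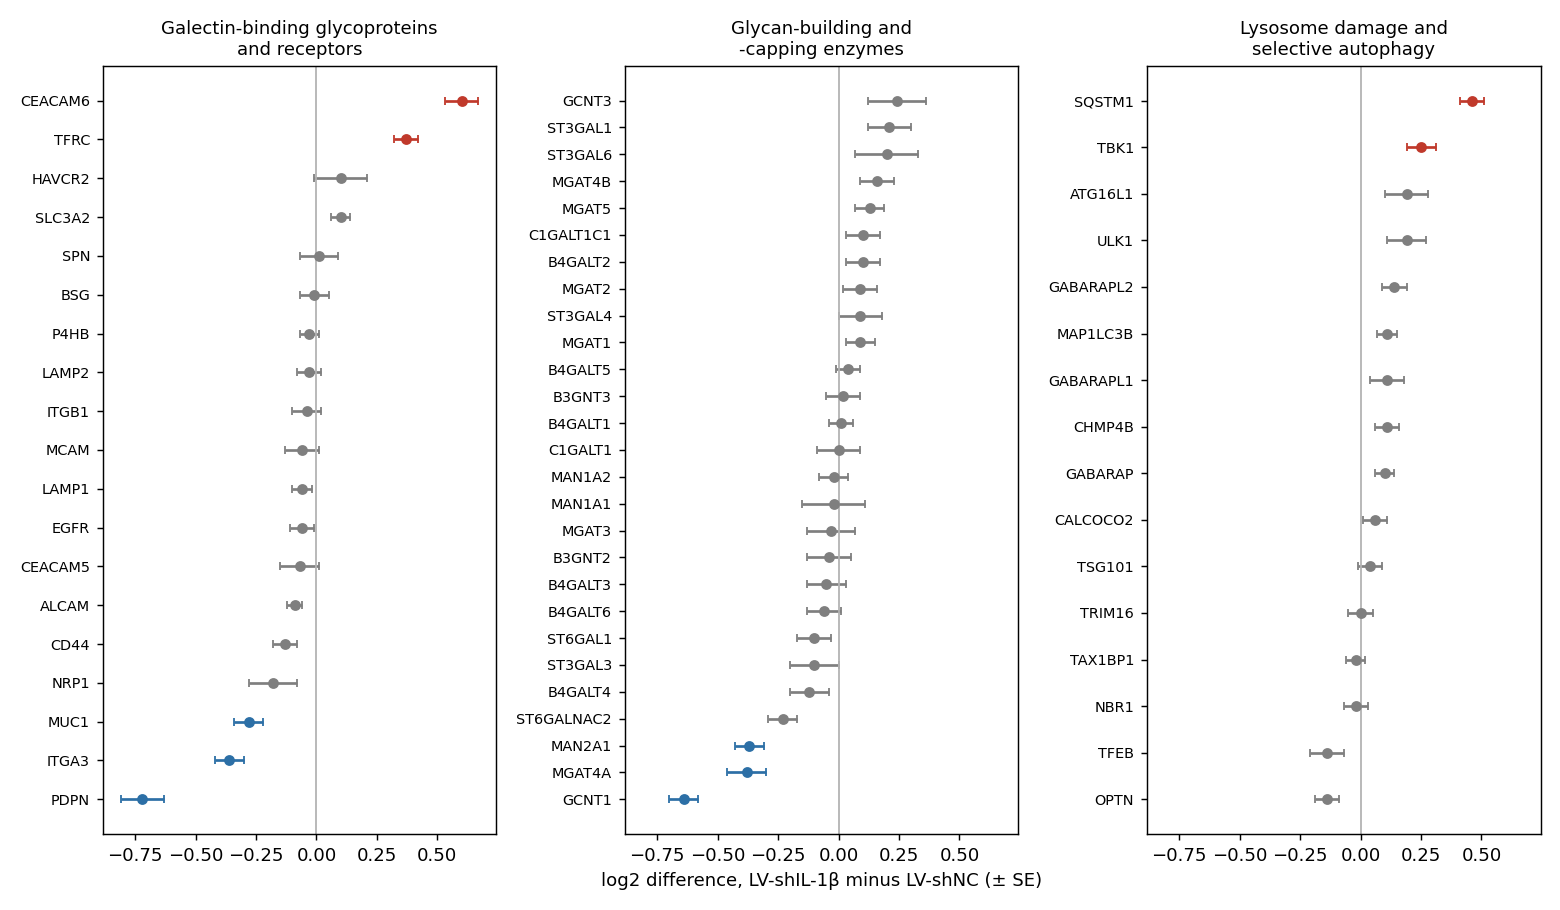
Log2 difference, LV-shIL-1β minus LV-shNC (horizontal axis, bars are the SE), of the measured genes in the lists of galectin-binding glycoproteins, glycan enzymes and lysosome damage genes, each by its brightest kept probe set. Red and blue points passed limma's adjusted threshold upward and downward and grey points did not, and PDPN (-0.72), GCNT1 (-0.64) and CEACAM6 (0.60) lie farthest from zero.

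Galectins read the sugars that glycosyltransferases make, and 27 of 29 listed enzymes of N-glycan branching, poly-N-acetyllactosamine, core O-glycans and sialic acid capping were measured. In limma 0 rose and 3 fell (11.1% called, close to the 8.53% over all genes). At an unadjusted p under 0.05, 3 were higher and 4 lower, where 13% of all genes were higher and 12% lower, and the median log2 difference was 0.00. GCNT1, which adds the branch of core 2 O-glycans, a preferred scaffold of galectin-1 ligands on T cells, had signals of 112.3, 106.6 and 109.4 in LV-shIL-1β and of 169.3, 181.2 and 162.7 in LV-shNC. The groups lay far apart, with a log2 difference of -0.64 ± 0.06 (SE, limma adjusted p = 0.000576), and its other kept probe set gave -0.63 ± 0.07 (adjusted p = 0.00157).

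MAN2A1, the Golgi mannosidase that trims N-glycans before they branch, fell on all 3 of its kept probe sets, by 0.37 ± 0.06, 0.28 ± 0.06 and 0.45 ± 0.08 on the log2 scale (limma adjusted p = 0.00731, 0.0257 and 0.0122). On the brightest its signals were 550.3, 517.9 and 502.7 in LV-shIL-1β and 622.7, 715.7 and 701 in LV-shNC, without overlap. MGAT4A, which adds an N-glycan branch, averaged 32.1 ± 0.955 in LV-shIL-1β and 41.8 ± 2.19 in LV-shNC (SD, n = 3, -0.38 ± 0.08, adjusted p = 0.0201). It failed the threshold when LV-shIL-1β array 2 or 3 or LV-shNC array 1 or 3 was left out (adjusted p up to 0.0782), and with a pseudocount of 16 the difference was -0.26.

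The enzyme most closely tied to galectin-3 binding on N-glycans, MGAT5, stood at 0.13 ± 0.06 without overlap between the groups and did not pass, and neither did the sialyltransferase ST6GAL1, which caps and hides galectin-1 sites, at -0.10 ± 0.07. Among the brightest enzymes, the galactosyltransferase B4GALT5 differed by 0.04 ± 0.05 (limma adjusted p = 0.679) and the branching enzyme MGAT2 by 0.09 ± 0.07 (adjusted p = 0.47).

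Inside the cell galectin-3 and galectin-8 mark broken vesicles for selective autophagy, and 16 of 17 listed genes of that response were measured. In limma 2 rose and 0 fell (12.5% called, beside 8.53% over all genes). At an unadjusted p under 0.05, 7 of the 16 were higher and 1 lower, beside the same 13% and 12% of all genes, and the median log2 difference was 0.10. SQSTM1, the autophagy receptor p62, had signals of 693, 708.8 and 708.2 in LV-shIL-1β and of 508.2, 538.9 and 489.5 in LV-shNC. The groups did not overlap, with a log2 difference of 0.46 ± 0.05 (SE, limma adjusted p = 0.000863), and 244804_at also passed (0.58 ± 0.08, adjusted p = 0.00385). The remaining 2 kept probe sets of SQSTM1 stood at 0.38 ± 0.11 and 0.27 ± 0.10.

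TBK1, a kinase of autophagy receptors, lay at the threshold, at 0.25 ± 0.06 (limma adjusted p = 0.0499), and failed it when any 1 array other than LV-shIL-1β array 1 was left out (adjusted p up to 0.182). CALCOCO2, the receptor that galectin-8 recruits, stood at 0.06 ± 0.05, and TRIM16, which works with galectin-3, at 0.00 ± 0.05. The brightest genes of the list, TAX1BP1 (-0.02 ± 0.04, limma adjusted p = 0.847), GABARAP (0.10 ± 0.04, adjusted p = 0.141) and GABARAPL2 (0.14 ± 0.05, adjusted p = 0.0954), did not pass.

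**Figure D4:**
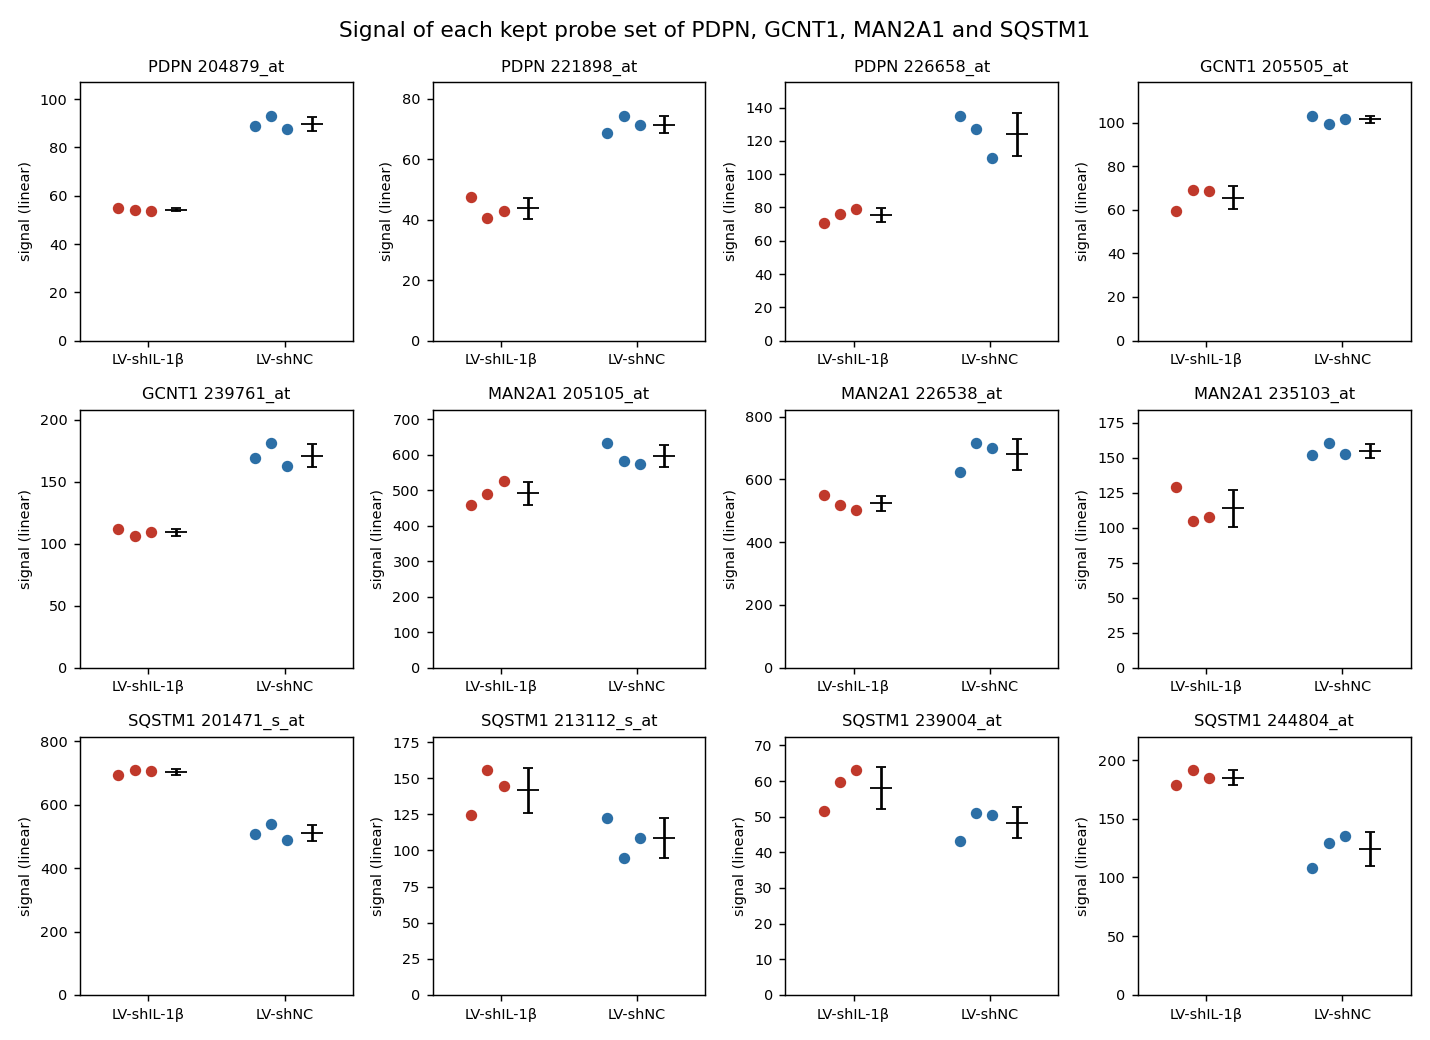
Signal (vertical axes, linear intensity from 0) of every kept probe set of PDPN, GCNT1, MAN2A1 and SQSTM1 on each array, with LV-shIL-1β in red on the left and LV-shNC in blue on the right of each panel. Points are single arrays, and black marks show group means with SD (n = 3). The groups do not overlap in any of the 12 panels, beside 27.9% of all kept probe sets. These genes had already passed limma's adjusted threshold, so nothing is read from that count.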

How the data were processed

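RNA of 6 samples, 3 a group, was hybridised to Affymetrix Human Genome U133 Plus 2.0 arrays. The authors deposited linear intensities for 54675 probe sets. MAS5 appears in the submitters' processing notes; how it scaled the arrays is not stated there. Of all values, 3.74% shared a decimal ending or one a multiple of a sixth away from it, where evenly spread endings would give 0.08%. A step across arrays may thus have narrowed the spread, which was not tested. The number of arrays limits the precision. Array medians ran from 18.4 to 18.9, with no further normalization applied.

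Log2 intensities of the 54613 probe sets other than controls were filtered (at least 3 arrays above 18.6), leaving 27546, and compared with limma 3.58.1 in R 4.3.3 (eBayes with trend, two-sided; differences are LV-shIL-1β minus LV-shNC), with Benjamini-Hochberg adjustment over all of them and a threshold of 0.05. The model was checked on simulated data. A gene in a list stands by its brightest kept probe set. The galectins and all lists were chosen with earlier results of these data known. Named were all galectin probe sets, list genes past the threshold or among the 3 brightest, the 3 nearest profiles per galectin, IL1B and cell type markers. Others are named to show a role, after their values were seen. Gene symbols come from the platform annotation, and all 5 identifiers of the galectin genes were found in RefSeq. Alternatives were other normalizations, filters, variance models, a replicate block, the methods' t-test, other probe sets for a gene and leaving out each array. The methods' t-test is an equal-variance Student's t-test on the kept log2 intensities, with the same adjustment. The paper names Student's t test among its general statistics, but called array genes by fold change with a detection P value under 0.05.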

Additional observations from a re-analysis of the deposited data

How the results depend on the processing

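The galectins were chosen on this comparison, so their count, 2 or 3 probe sets under the 15 alternatives, is no sign of stability. The count over all probe sets was 568 with the replicate block, 267 with the methods' t-test and 694 to 1807 when single arrays were left out. Same-numbered arrays did not deviate together (correlations -0.394, -0.112 and -0.214), and differently numbered arrays gave -0.106 to 0.286. Deviations from a mean of 3 arrays are tied to each other, so these values cannot decide whether the numbers pair the arrays. With the replicate block the glycan enzymes called numbered 1 and the lysosome damage genes 1. The methods' t-test called 0 of the galectin-binding glycoproteins (3 higher and 4 lower at an unadjusted p under 0.05), 1 glycan enzyme and 1 lysosome damage gene. Of the lysosome damage genes, 1 was called with quantile normalization, with no filter and with no trend, and 1 to 3 when single arrays were left out (3 without LV-shIL-1β array 1, 1 without any other). Averaging over the probe sets of a gene gave 5 glycan enzymes. GCNT1 and SQSTM1 passed under all 15 alternatives, whereas PDPN, CEACAM6, TFRC and ITGA3 failed in the methods' t-test alone and MAN2A1 there and with the block. TBK1 failed under 10 of the 15, MUC1 under 7 and MGAT4A under 6. The causes were not tested.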
